A study of Mus musculus with 6 samples.

Results

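Tumor necrosis factor (TNF) signalling and the NF-kappaB transcription factors it controls were examined as a set of 40 genes in LSK cells of mouse bone marrow. LSK cells are lineage-negative, Sca-1-positive and c-Kit-positive, the fraction in which blood stem cells and early progenitors are found. The members were taken from a written list by gene symbol. Each of the 40 matched 1 row of a count table of 55573 genes, and all 40 were among the 20646 genes with enough counts to be tested. The list was divided by textbook role into 28 pathway components and 12 induced targets, and 14 of the components are also counted as genes that NF-kappaB itself induces.

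Bulk RNA sequencing covered 6 libraries from C57BL/6J mice, aged 3 months, after bead enrichment for c-Kit and cell sorting. The 3 wild-type libraries carry the genotype Etv6+/+. The 3 mutant libraries carry 1 copy of Etv6 R355X, and the genotype field writes them as Etv6+/-. Etv6 is a repressor among the ETS transcription factors. No treatment is named for either group, so the members were measured in cells that had received no stated inflammatory stimulus, and the labels do not say whether each library came from its own animal.

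TNF binds its receptors on the cell surface, and adaptor proteins and ubiquitin ligases gathered there switch on the IkappaB kinase complex. That complex marks IkappaB proteins for destruction, which frees NF-kappaB dimers to enter the nucleus. NF-kappaB then induces cytokines, adhesion molecules and survival genes together with its own inhibitors, so that the levels of Nfkbia and Tnfaip3 serve as a readout of the pathway as well as a brake on it. In blood-forming tissue the pathway is known for emergency production of myeloid cells and for the survival of stem cells under stress.

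The promoters of the IkappaB genes are shown first because Nfkbia and Nfkbie had the smallest p-values of the components, while the third inhibitor, Nfkbib, had a fold of 1.02. The sequences are the 250 bases before the annotated start in RefSeq (GRCm38.p6, the assembly that mm10 names), 5′ to 3′ on the strand of the gene. Capitals mark a match to the NF-kappaB (kappaB) consensus in its usual form of 10 bases, searched on both strands.
Nfkbia (chr12:55492648-55492897, minus strand): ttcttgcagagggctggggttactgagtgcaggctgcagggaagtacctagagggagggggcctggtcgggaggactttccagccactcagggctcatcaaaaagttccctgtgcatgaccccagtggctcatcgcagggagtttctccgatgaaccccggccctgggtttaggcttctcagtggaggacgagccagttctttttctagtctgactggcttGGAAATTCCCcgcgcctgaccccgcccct
Nfkbie (chr17:45555450-45555699, plus strand): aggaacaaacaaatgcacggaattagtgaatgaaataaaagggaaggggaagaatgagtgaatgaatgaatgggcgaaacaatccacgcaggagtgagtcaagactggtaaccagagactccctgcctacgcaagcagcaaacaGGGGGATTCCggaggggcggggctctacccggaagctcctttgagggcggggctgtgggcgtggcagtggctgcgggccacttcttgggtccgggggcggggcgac
Nfkbib (chr7:28766645-28766894, minus strand): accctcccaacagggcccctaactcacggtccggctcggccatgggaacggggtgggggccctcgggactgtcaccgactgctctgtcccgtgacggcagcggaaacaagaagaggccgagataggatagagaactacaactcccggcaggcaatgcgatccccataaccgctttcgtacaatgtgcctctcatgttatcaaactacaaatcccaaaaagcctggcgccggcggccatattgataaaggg
The match before Nfkbia lay from -29 to -20 relative to the start and that before Nfkbie from -106 to -97. No match lay in the window of Nfkbib, which says only that these letters are not there. Bcl3, of the same family, had a match from 3 to 12 relative to the start and a log2 fold change of -0.41. Tnfaip3 also had matches, with a log2 fold change of 0.00055. The genes shown were picked by their values, and no relation of matches to folds was tested.

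Of the 40 members, 33 had a promoter in the RefSeq table, which covers 250 bases before to 50 after a start. Cd69, Cd83, Ikbkb, Map3k8, Nfkb1, Nfkbiz and Relb had no entry. A kappaB match was found for 7 of 11 components that are also induced (63.6%), for 3 of 10 induced targets (30%) and for 2 of 12 other components (16.7%). Over all 27025 genes of the table the share was 5.14%, and over all 32851 promoters, since a gene can have several, it was 4.51%. For 7 further members, 1 match or run of overlapping matches each is shown with 15 bases on each side, to let the reader compare subunit, brake and target genes. Nfkb2 had 3 other matches and Tnfaip3 had 1 other, which are not shown.
Rel (chr11:23771036-23771076, minus strand): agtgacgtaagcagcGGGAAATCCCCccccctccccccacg
Nfkb2 (chr19:46304683-46304723, plus strand): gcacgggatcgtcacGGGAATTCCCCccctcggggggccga
Tnip1 (chr11:54962972-54963013, minus strand): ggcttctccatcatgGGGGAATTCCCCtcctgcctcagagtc
Tnfaip3 (chr10:19015398-19015437, minus strand): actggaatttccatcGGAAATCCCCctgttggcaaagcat
Sod2 (chr17:13007741-13007780, plus strand): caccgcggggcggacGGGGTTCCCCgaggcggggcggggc
Ier3 (chr17:35821606-35821645, plus strand): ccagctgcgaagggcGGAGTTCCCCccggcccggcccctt
Traf3 (chr12:111166345-111166384, plus strand): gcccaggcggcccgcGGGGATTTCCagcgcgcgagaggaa
The capital runs of Rel, Nfkb2 and Tnip1 are longer than 10 bases because several matches overlap there, 4 of them in Tnip1. The other genes with a match were Bcl3, Cyld and Sqstm1. A stricter form, GGGA followed after 2 bases by TTCC on either strand, was met only by Nfkb2, Nfkbia and Cyld, or 3 of 33 members (9.09%) against 1.63% of all genes. Nfkb2 meets it in matches that are not shown, and its shown run does not meet it. The ETS word CCGGAAGT, searched on both strands, occurred in 1 of 33 members, Ikbkg (3.03%), against 4.31% of all genes. These are matches of letters and no measurement of binding.

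**Figure D1:**
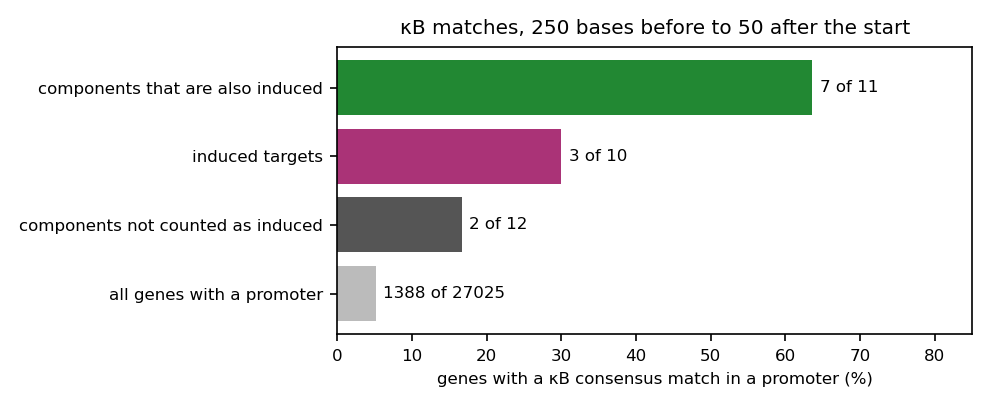
Share of genes with a kappaB consensus match in at least 1 promoter (horizontal axis, percent) for the 3 classes of members and for all genes with a promoter; labels give the number with a match of the number with an entry. Components that are also induced stand at 63.6%, induced targets at 30%, other components at 16.7% and all genes at 5.14%.

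Libraries held 45194733 to 92151105 expected counts, with mutant replicate 1 the deepest. Values below are CPM, counts relative to library size after scaling by the trimmed mean of M-values (TMM). Etv6 itself measured 400 to 454 CPM among wild-type libraries against 305 to 386 CPM among mutant ones (log2 fold change -0.30, adjusted p = 0.245 in edgeR's quasi-likelihood test). All 10 LSK markers looked at, Kit and Ly6a (Sca-1) among them, were detected, and their summed level was 1697 to 2187 CPM among wild-type libraries against 1718 to 1943 CPM among mutant ones. Markers of mature cells were present too, and several lists had more genes at an unadjusted p under 0.05 in edgeR than the 10.6% of all tested genes. The summed level of 10 B cell markers was 125 to 160 CPM among wild-type libraries against 171 to 385 CPM among mutant ones, without overlap, and 8 of 10 were higher at that p. That of 12 macrophage and monocyte markers was 180 to 208 CPM against 200 to 294 CPM, with 7 of 12 higher (58.3%). That of 10 dendritic cell markers was 445 to 539 CPM against 475 to 579 CPM, with 3 higher and 1 lower. Flt3, which is also among the LSK markers, held 219 to 301 CPM of that sum among wild-type libraries and 257 to 280 CPM among mutant ones. The summed level of 10 T and NK cell markers was 120 to 142 CPM against 131 to 170 CPM, with 1 higher and 1 lower. The higher one, the NK cell receptor gene Klrb1c, passed the adjusted threshold. Most of that sum was Nkg7, at 87.8 to 121 CPM among wild-type libraries and 104 to 134 CPM among mutant ones. The summed level of 10 neutrophil markers was 2849 to 3459 CPM against 2232 to 3746 CPM, with 0 at that p. No marker in these lists was at 0 in all libraries, and their part in the members' values was not tested.

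The genes of TNF and NF-kappaB signalling showed small differences between mutant and wild-type LSK cells. None of the 40 members passed edgeR's quasi-likelihood test after Benjamini-Hochberg adjustment over all genes at 0.05, a threshold passed by 0.266% of the tested genes. At an unadjusted p under 0.05 there were 4 members, or 10%, against 10.6% of all genes: Nfkbia, Nfkbie and Cd69 higher in the mutant and Ier3 lower. Split by direction, 3 of 40 were higher, against 5.83% of all genes, and 1 of 40 lower, against 4.8%. DESeq2 called 1 member, Cd69, where it called 1.64% of the 19709 genes with an adjusted p. It had 5 members at an unadjusted p under 0.05, against 6.93% of all genes. That share covers 33252 genes with no filter on low counts, unlike those of edgeR and limma-voom, so it is not a like background. Limma-voom called 0 members, where it called 0.199% of all genes, and had 5 members at an unadjusted p under 0.05, against 11.4%. The mutant and wild-type libraries did not overlap for 5 members, Rela, Nfkbia, Nfkbie, Icam1 and Cd69 (12.5%), against 16.3% of all tested genes. The members' median log2 fold change was 0.011 and that of all tested genes 0.0019, and 22 of 40 members lay above 0. The members' shares past edgeR's thresholds and without overlap are close to or below those of all genes.

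The size of any difference that these libraries allow is bounded. The 95% interval of the fold lay within 1.5-fold either way for 29 of 40 members (72.5%, against 54.2% of all tested genes). It lay within 2-fold for 37 (92.5%, against 74.2%), and the exceptions were Bcl3, Il1b and Ptgs2. In a simulation of this comparison with at least 20436 genes tested, 32.2% of genes changed by 1.5-fold and 52.2% of those changed by 2-fold were called. The changed genes were drawn at random from all tested genes, and recovery among the members alone was not simulated. As the members' intervals were more often narrow, these rates need not hold for them. A member without a call is still not shown to be unchanged, and its interval is the better guide.

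**Figure D2:**
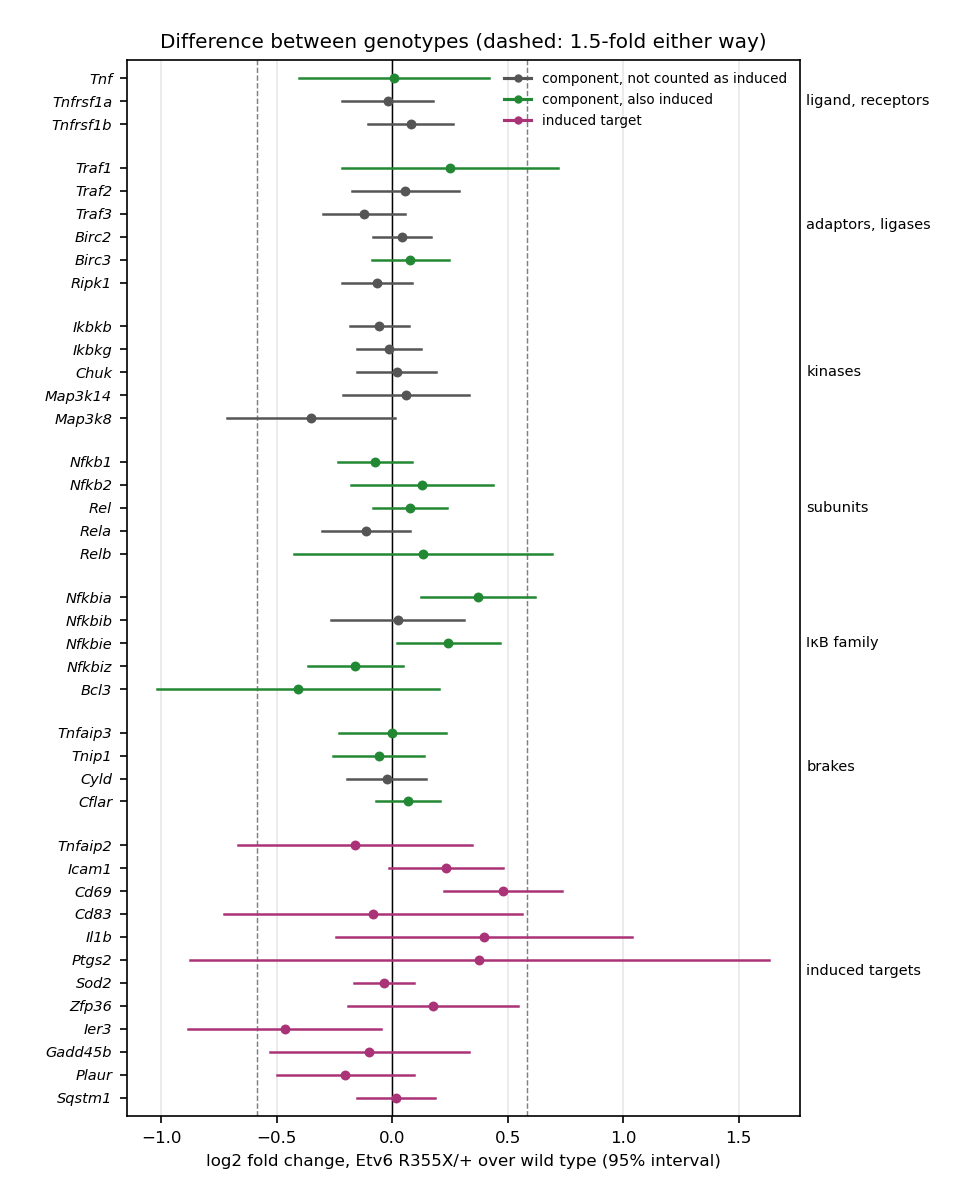
Fitted log2 fold change of each member, mutant over wild type (horizontal axis), with its 95% interval as a line, ordered by role and coloured by class; dashed lines mark 1.5-fold either way. Of 40 intervals, 29 lie between the dashed lines, and those of Nfkbia, Nfkbie, Cd69 and Ier3 do not reach 0.

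The ligand was scarce and its receptors were not. Tnf, the cytokine itself, measured 3.34, 2.85 and 2.98 CPM in wild-type replicates 1 to 3 and 3.51, 2.76 and 2.92 CPM in the mutant ones. The groups overlapped fully, and the fold was 1.005 (interval 0.756 to 1.34). Tnfrsf1a, the receptor found on most cells, measured 29.8, 31.1 and 32.7 CPM among wild-type libraries against 27.6, 32.9 and 31.9 CPM among mutant ones, a fold of 0.987 (0.861 to 1.13). Tnfrsf1b, the receptor more restricted to blood and immune cells, measured 36.6, 34.5 and 35.3 CPM against 41.6, 35.6 and 35.1 CPM. Only mutant replicate 1 stood above the wild-type range of Tnfrsf1b, and the fold was 1.06 (0.929 to 1.201). Per kilobase of merged exon, both receptors were several times above their ligand in wild type, at 12.04 for Tnfrsf1a and 9.29 for Tnfrsf1b against 1.86 CPM per kilobase for Tnf. Exons of all annotated isoforms were merged for this scale, so a gene with many long isoforms is scaled down. In these bulk libraries fewer cells of a type and less RNA per cell cannot be told apart, for Tnf and for every gene below.

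Adaptors and ubiquitin ligases at the receptor had intervals that all include no difference. Traf2 and Ripk1, which join the TNF receptor complex, had folds of 1.04 (interval 0.887 to 1.22) and 0.955 (0.860 to 1.06), and Traf3, which holds back the non-canonical branch, had 0.918 (0.812 to 1.04). The neighbouring genes Birc2 and Birc3 encode the ubiquitin ligases cIAP1 and cIAP2, which ubiquitinate RIPK1 and NIK. Birc2 measured 68.5 ± 1.24 CPM among wild-type libraries against 70.5 ± 1.24 CPM among mutant ones (SD, n = 3), and its interval, 0.942 to 1.12, was narrow. Birc3, itself an NF-kappaB target, had a fold of 1.05 (0.939 to 1.19). The largest difference in this group was that of Traf1, an adaptor that NF-kappaB induces, at 3.25, 3.62 and 4.62 CPM among wild-type libraries against 5.10, 5.06 and 3.43 CPM among mutant ones. Mutant replicate 3 lay inside the wild-type range, and the fold of 1.19 had an interval from 0.858 to 1.64.

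The IkappaB kinase complex had folds close to 1 with narrow intervals. Ikbkb and Chuk, its catalytic subunits, had folds of 0.962 (interval 0.880 to 1.05) and 1.01 (0.8995 to 1.14), and Ikbkg, its scaffold NEMO, 0.990 (0.899 to 1.09). Map3k14, the kinase NIK of the non-canonical branch, had a fold of 1.04 (0.862 to 1.26). Map3k8, the kinase Tpl2 that links TNF and Toll-like receptor signals to ERK, differed most in this group. It measured 12.6, 10.4 and 8.17 CPM among wild-type libraries against 8.47, 7.44 and 8.51 CPM among mutant ones, so wild-type replicate 3 was at the mutant level and the other wild-type libraries above it. Its log2 fold change was -0.35 (SE 0.165, edgeR unadjusted p = 0.0569, adjusted p = 0.491), and it ran from -0.50 without wild-type replicate 3 to -0.19 without wild-type replicate 1.

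Among the 5 NF-kappaB subunits, those of the canonical dimers were abundant and those of the non-canonical dimer scarce. Nfkb1, the precursor of p50, measured 131, 132 and 117 CPM among wild-type libraries against 111, 124 and 126 CPM among mutant ones, and Rel measured 95.04, 80.4 and 84.8 against 87.6, 91.6 and 95.3 CPM. Both overlapped between the genotypes, with folds of 0.950 (interval 0.850 to 1.06) for Nfkb1 and 1.05 (0.943 to 1.18) for Rel. Rela, or p65, was very even in wild type at 28.2, 27.9 and 28.0 CPM, and measured 26.6, 23.6 and 27.4 CPM in the mutant. All mutant values of Rela lay below the wild-type ones, with a fold of 0.924 (interval 0.810 to 1.05, edgeR adjusted p = 0.688).

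Nfkb2, the precursor of p52, measured 6.56, 6.29 and 5.93 CPM among wild-type libraries against 7.22, 6.39 and 6.91 CPM among mutant ones. Relb, its partner, measured 2.76, 2.07 and 1.87 against 1.86, 3.15 and 2.36 CPM. Nfkb2 and Relb also overlapped, and the interval of Relb was wide, from 0.743 to 1.61. Per kilobase of merged exon in wild type, Rel stood at 11.6 (10.8 to 12.7), Nfkb1 at 10.5 (9.74 to 10.9), Rela at 9.13 (9.08 to 9.19), Nfkb2 at 1.37 (1.29 to 1.43) and Relb at 0.574 (0.481 to 0.710) CPM per kilobase. Rel and Nfkb1 overlap in that order, and every later step is larger than the spread of the 3 libraries. That spread does not cover the exon lengths used, 12061 bases for Nfkb1, 7466 for Rel and 3072 for Rela. In CPM alone, Nfkb1 lay above Rel and Rel above Rela in every wild-type library. The summed level of the 5 subunits was 32.0 to 34.9 CPM per kilobase in wild type and 31.6 to 34.3 in the mutant.

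The IkappaB family held the components with the smallest p, Nfkbia and Nfkbie, and values on both sides of 0. Nfkbia, which encodes IkappaBα, the inhibitor that NF-kappaB restores within each response, measured 9.80, 10.03 and 10.02 CPM among wild-type libraries against 13.3, 12.1 and 13.1 CPM among mutant ones. The wild-type libraries were almost identical and every mutant library lay above them. The log2 fold change was 0.37 (SE 0.112), a fold of 1.29 with an interval from 1.09 to 1.53, and it did not pass (edgeR unadjusted p = 0.00728, adjusted p = 0.277). Its unadjusted p stayed between 0.0119 and 0.0216 whichever library was left out. Nfkbie, or IkappaBε, another inhibitor under feedback control, measured 16.2, 16.3 and 14.1 CPM against 18.1, 19.0 and 18.2 CPM, again without overlap. Its fold was 1.18 (interval 1.01 to 1.38, edgeR unadjusted p = 0.0363, adjusted p = 0.438), and its unadjusted p stayed under 0.05 in 3 of the 6 fits that leave out a library, reaching 0.130 without wild-type replicate 3. Both genes share no exon bases with another annotated gene, and both had whole counts in all libraries.

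Nfkbib, or IkappaBβ, which is not counted as induced, measured 9.95 ± 1.08 CPM among wild-type libraries against 10.1 ± 0.588 CPM among mutant ones (SD, n = 3). Added together, a sum chosen after the values were seen, Nfkbia, Nfkbib and Nfkbie came to 15.5, 16.3 and 15.9 CPM per kilobase in wild type and 18.9, 18.7 and 18.5 in the mutant. Both genes of nuclear IkappaB proteins among the members had lower means in the mutant. Nfkbid, another such gene outside the members, lay the other way, with a log2 fold change of 0.16 (SE 0.157, edgeR adjusted p = 0.767). Nfkbiz, which cooperates with p50 at secondary response genes, measured 23.2 ± 1.59 and 20.8 ± 1.11 CPM. Bcl3, a coactivator bound to p50 and p52 dimers, measured 11.2, 13.8 and 10.1 CPM among wild-type libraries against 6.26, 6.46 and 13.9 CPM among mutant ones. Mutant replicate 3 was the highest library of all for Bcl3 and the other mutant libraries the lowest. The log2 fold change was -0.41 (SE 0.276) with all libraries and -0.88 without mutant replicate 3 (edgeR unadjusted p = 0.000347, adjusted p = 0.0757).

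**Figure D3:**
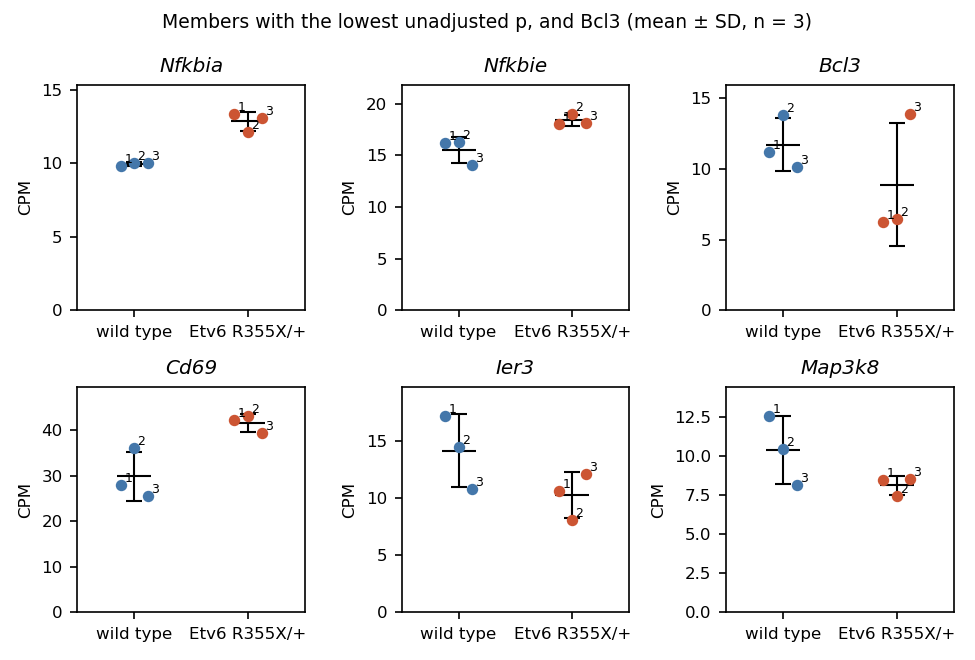
Level in CPM (vertical axis, from 0) of Nfkbia, Nfkbie, Bcl3, Cd69, Ier3 and Map3k8 in each library, numbered by replicate, with the mean and SD of each genotype (n = 3). Nfkbia, Nfkbie and Cd69 are above the wild-type range in all mutant libraries, and for Bcl3 mutant replicate 3 stands at 13.9 CPM against 6.26 and 6.46 in the others.

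The brakes on the pathway had folds close to 1. Tnfaip3, which encodes the ubiquitin-editing protein A20, measured 18.5, 17.8 and 17.2 CPM among wild-type libraries against 16.4, 19.7 and 17.5 CPM among mutant ones, a fold of 1.00 with an interval from 0.853 to 1.17. Tnip1, a partner of A20, had a fold of 0.960 (0.838 to 1.10), and Cyld, a deubiquitinase, 0.983 (0.873 to 1.11). Cflar, the caspase-8 inhibitor c-FLIP, measured 117, 112 and 112 CPM against 112, 118 and 127 CPM, a fold of 1.05 (0.953 to 1.16). All 4 intervals lay within 1.5-fold either way.

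Induced targets varied more from library to library than the components, and their values lay on both sides of 0. Cd69, an early activation marker that retains lymphocytes in tissue, measured 28.0, 36.0 and 25.7 CPM among wild-type libraries against 42.3, 43.1 and 39.5 CPM among mutant ones. Every mutant library lay above every wild-type library, and wild-type replicate 2 came closest. The log2 fold change was 0.48 (SE 0.115), a fold of 1.39 with an interval from 1.17 to 1.66, and it did not pass in edgeR's quasi-likelihood test (unadjusted p = 0.00174, adjusted p = 0.170). It did pass in DESeq2 (adjusted p = 0.00765) and in edgeR without a filter on low counts (adjusted p = 0.00126). The adjusted p of the other alternatives with all 6 libraries ran from 0.121 to 0.236. With a library left out its unadjusted p ran from 6.16e-05 to 0.0101 and its lowest adjusted p was 0.0694. Lymphocytes, NK cells included, also carry Cd69, and some of their markers were higher in the same libraries. The B cell markers summed to 142, 125 and 160 CPM among wild-type libraries against 385, 238 and 171 CPM among mutant ones, without overlap. The T and NK cell markers summed to 120, 120 and 142 CPM against 170, 141 and 131 CPM, with overlap. Nkg7 alone held 87.8, 96.2 and 121 CPM of that sum against 134, 117 and 104 CPM, so the sum mostly follows 1 gene. Within that list Klrb1c measured 1.89, 1.43 and 1.05 CPM against 6.44, 4.55 and 4.54 CPM, without overlap (edgeR adjusted p = 0.0177). Cd4 lay the other way, at 7.65, 4.59 and 3.90 CPM against 2.16, 2.23 and 2.81 CPM. It too was without overlap (edgeR unadjusted p = 0.000909, adjusted p = 0.132). Of the 10 T and NK cell markers, 7 had a log2 fold change above 0 and 3 below. The part of these cells in the Cd69 values was not tested.

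Ier3, an immediate-early survival gene, lay the other way, at 17.2, 14.5 and 10.8 CPM among wild-type libraries against 10.6, 8.08 and 12.1 CPM among mutant ones. Wild-type replicate 3 fell inside the mutant range. Its log2 fold change was -0.47 (SE 0.189, edgeR unadjusted p = 0.0318, adjusted p = 0.429), and the unadjusted p was under 0.05 in 2 of the 6 fits that leave out a library and 0.157 without wild-type replicate 1. Icam1, an adhesion molecule for leukocytes, measured 18.6, 18.2 and 15.2 CPM against 19.1, 19.9 and 22.1 CPM without overlap, a fold of 1.18 (interval 0.990 to 1.39, edgeR adjusted p = 0.503). It shares 11.7% of its exon bases with Gm47079 on the opposite strand, and unstranded reads there cannot be assigned.

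Some of the other targets turned on single libraries. Zfp36, which destabilises cytokine messenger RNA, measured 75.0, 67.6 and 42.5 CPM among wild-type libraries against 64.4, 77.3 and 67.5 CPM among mutant ones. Wild-type replicate 3 was the low library, and the summed level of 21 immediate-early genes was also lowest there, at 514 CPM. That sum was 600 and 671 CPM in the other wild-type libraries and 516 to 548 CPM in the mutant. Myc alone held 274, 352 and 277 CPM of it among wild-type libraries and 234, 219 and 240 CPM among mutant ones. The log2 fold change of Zfp36 was 0.17 with all libraries and -0.03 without wild-type replicate 3. Tnfaip2, a gene named for its induction by TNF, measured 13.1, 12.2 and 24.0 CPM against 13.9, 17.1 and 13.03 CPM, with wild-type replicate 3 now the high one, and its log2 fold change was -0.16 with that library and 0.21 without it. Zfp36 and Tnfaip2 were chosen after their values were seen. Sod2, the mitochondrial superoxide dismutase, had a fold of 0.975 (0.891 to 1.07), and Sqstm1, the autophagy receptor p62, 1.01 (0.9003 to 1.14). Plaur, the urokinase receptor, and Gadd45b, a stress response gene, had folds of 0.868 and 0.933. Il1b measured 1.71 ± 0.426 and 2.25 ± 0.705 CPM, the dendritic and B cell marker Cd83 measured 1.55 ± 0.459 and 1.45 ± 0.307 CPM, and the cyclooxygenase gene Ptgs2 0.248 ± 0.126 and 0.328 ± 0.148 CPM (SD, n = 3). Il1b rests on 65 to 213 counts per library and Cd83 on 50 to 157. Ptgs2 rests on 6 to 30, where 3 counts amount to 0.0343 to 0.0668 CPM.

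**Figure D4:**
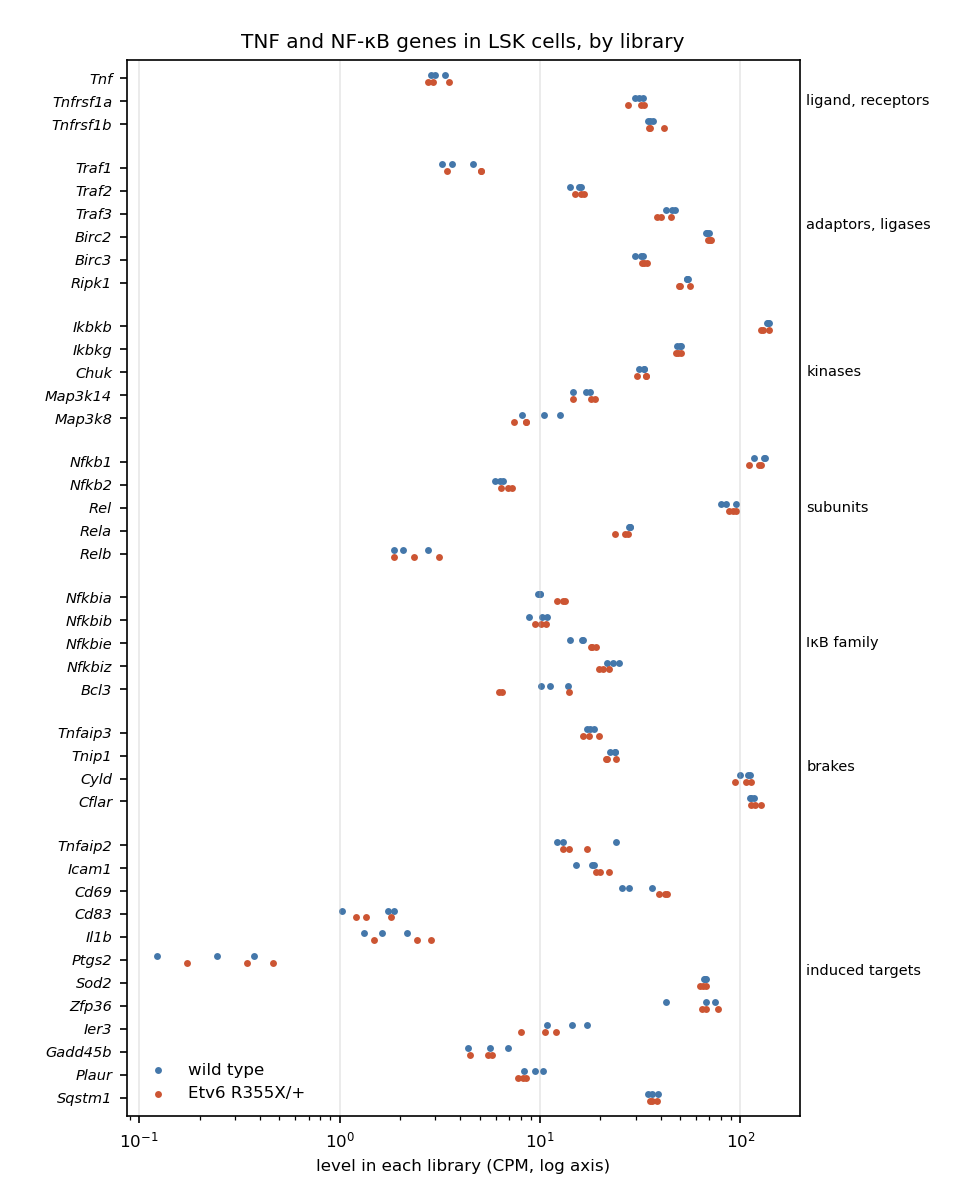
Level of each member in each of the 6 libraries (horizontal axis, CPM on a log scale; 1 point per library, wild type and mutant offset), ordered by role. Most members overlap between genotypes, and levels run from below 1 CPM for Ptgs2 to above 100 CPM for Ikbkb, Nfkb1 and Cflar.

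Components and targets were set side by side. The 28 components had a median log2 fold change of 0.012, ranging from -0.41 to 0.37, and the 12 targets a median of -0.010, ranging from -0.47 to 0.48. The components that are also induced had a median of 0.073, with 10 of 14 above 0, and the other components -0.017, with 6 of 14 above 0. All tested genes had a median of 0.0019, with 50.6% above 0. The SD of a library's median deviation within a genotype was 0.032 for components and 0.091 for targets, so their medians differ by less than this spread. It was 0.052 for components also induced and 0.036 for the other components, and the medians of these lay further apart than either SD. With a library left out, the median of the components that are also induced ran from 0.029 to 0.091. That of the other components ran from -0.041 to 0.0078 and that of the targets from -0.029 to 0.071. No test of the difference between the classes was made.

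The classes also differed in their spread between libraries, which was not tested. The median coefficient of variation was 5.09% in wild type and 6.43% in the mutant for components, and 22.4% and 11.3% for targets, against 11% and 12.1% for all tested genes. The 95% interval lay within 1.5-fold for 13 of 14 components not counted as induced, for 10 of 14 that are also induced and for 6 of 12 targets.

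**Figure D5:**
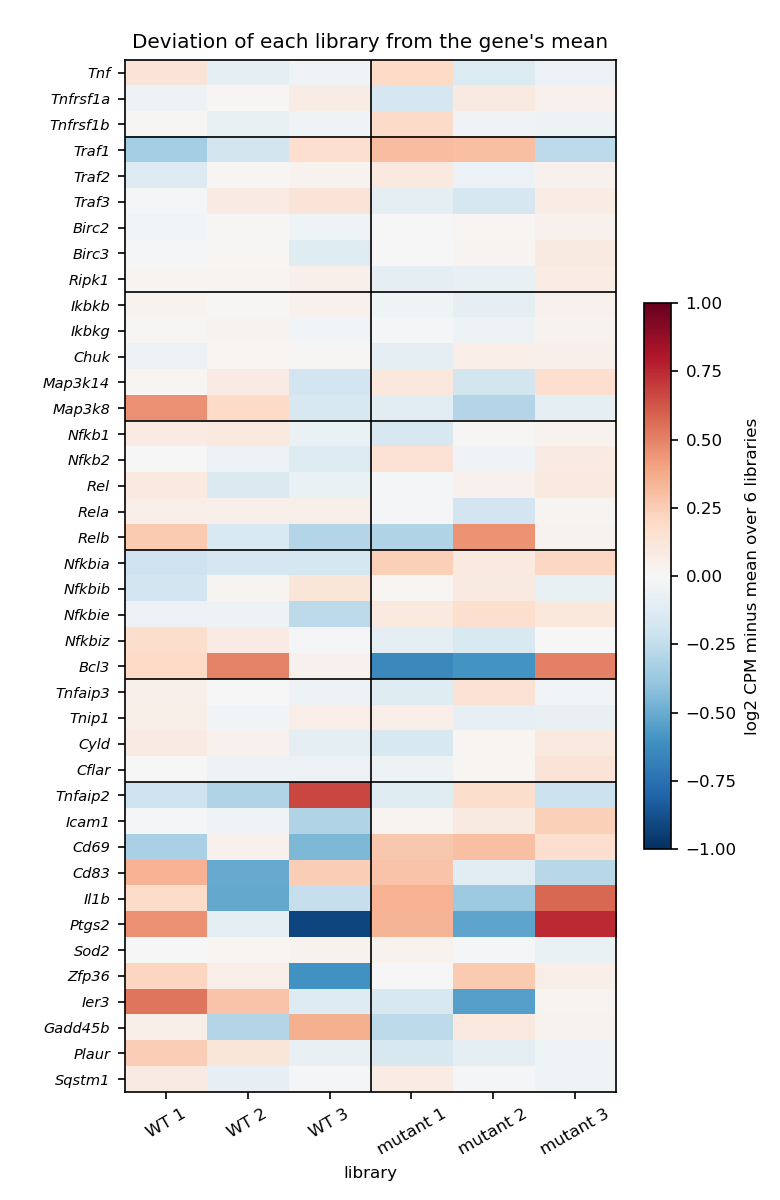
Deviation of each library (columns) from the gene's mean over the 6 libraries (rows, log2 CPM; red above, blue below), with lines between roles and genotypes. The induced targets at the bottom carry the strongest colours, and 5 rows, Rela, Nfkbia, Nfkbie, Icam1 and Cd69, split fully by genotype.

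Libraries differed little over the members as a set. The median deviation of a library over the 40 members ran from -0.044 in wild-type replicate 3 to 0.043 in mutant replicate 3 on the log2 scale. Mutant replicate 3 was the highest library for 13 members and the lowest for 1, and wild-type replicate 3 was the lowest for 10. Of the 40 members, 11 share exon bases with another annotated gene, up to 17.3% for Sqstm1, and 7 had expected counts that were not whole.

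Genes of the pathway outside the list had a median close to 0. Of 42 other components, all tested, 0 passed edgeR's adjusted threshold, and the median log2 fold change was -0.0060. At an unadjusted p under 0.05 in edgeR, 3 were higher and 2 lower, or 11.9% against 10.6% of all tested genes. DESeq2 called 1 of the 42, Tnfrsf13c, where it called 1.64% of all genes with an adjusted p, and limma-voom called 0. Each had 4 at an unadjusted p under 0.05, against 6.93% of unfiltered genes in DESeq2 and 11.4% of tested genes in limma-voom. Tnfrsf13c, the BAFF receptor of B cells, measured 21.4, 20.6 and 16.6 CPM among wild-type libraries against 30.6, 24.8 and 24.8 CPM among mutant ones (edgeR adjusted p = 0.221), in the libraries where B cell markers were also higher. Tab1 and Tab2 encode adaptors of the kinase TAK1 and lay in opposite directions, with log2 fold changes of -0.40 (SE 0.148) and 0.13 (SE 0.0552). Cul1, a scaffold of the ligase that degrades IkappaB, had -0.15 (SE 0.0607).

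Of 40 other induced targets, 33 had enough counts, 1 passed over all genes, where 0.266% of tested genes did, and the median was -0.016. At an unadjusted p under 0.05 in edgeR, 3 were higher and 1 lower, or 12.1% against 10.6% of all tested genes. The gene that passed was Sdc4, a heparan sulfate proteoglycan, at 11.1, 12.2 and 10.1 CPM among wild-type libraries against 24.1, 20.2 and 17.8 CPM among mutant ones. Its log2 fold change was 0.90 (SE 0.133, edgeR adjusted p = 0.0259), and DESeq2 and limma-voom also called it. DESeq2 called Irf1 as well, where it called 1.64% of all genes with an adjusted p. The edgeR adjusted p of Sdc4 was 0.0522 with the replicate number as a block. It was 0.110, 0.0872 and 0.0715 without wild-type replicates 1, 2 and 3, and 0.0724 and 0.0995 without mutant replicates 1 and 2. In edgeR the log2 fold change of Irf1, a transcription factor shared with the interferon response, was 0.32 (SE 0.0719, adjusted p = 0.154), that of the adhesion receptor Cd44 -0.17 (SE 0.0602) and that of the survival gene Bcl2a1b 0.76 (SE 0.344). The chemokine Cxcl1 was at 0 counts in all 6 libraries, and Cxcl2, Csf2, Il12b, Nos2, Saa3 and Edn1 reached at most 10 counts in any of them.

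Among 21 immediate-early genes, which answer many stimuli including handling of cells, 0 passed edgeR's adjusted threshold, and the median log2 fold change was -0.044. At an unadjusted p under 0.05 in edgeR, 1 was higher and 1 lower, or 9.52% against 10.6% of all tested genes. DESeq2 called 1 of the 21, Myc, where it called 1.64% of all genes with an adjusted p, and limma-voom called 0. Each had 2 at an unadjusted p under 0.05, against 6.93% of unfiltered genes in DESeq2 and 11.4% of tested genes in limma-voom. Myc, a driver of growth, measured 274, 352 and 277 CPM among wild-type libraries against 234, 219 and 240 CPM among mutant ones, and Btg2 21.2, 19.3 and 16.2 against 22.5, 23.5 and 21.7 CPM. Ier2 and Nr4a1 had log2 fold changes of -0.22 (SE 0.110) and 0.54 (SE 0.270).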

How the data were processed

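The authors deposited expected counts per gene and library, with no scaling applied. Trim Galore 0.60, STAR 2.7, RSEM 1.31 and the build mm10 are named, per the submitters' processing notes. For the annotation release, the sources used here give no name. Per the labels' protocols, libraries came from total RNA by SPIA, an isothermal amplification. The table's name calls it unstranded, so reads from overlapping genes on opposite strands were not separated. The 92 spike-in rows, all at 0, were left out.

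Expected counts were rounded, filtered with filterByExpr and scaled by TMM. Genotypes were compared by the quasi-likelihood test of edgeR 4.0.16 in R 4.3.3 (two-sided, no covariate), with Benjamini-Hochberg adjustment over all tested genes and a threshold of 0.05. Standard errors were derived from fold changes and F statistics, and the 95% intervals are approximate. Exon lengths come from GENCODE M21, matched by identifier. Members, roles and lists were chosen with earlier results of these data known. Values by library are given for the subunits, Tnf and its receptors, Nfkbia, Tnfaip3, members with an unadjusted p under 0.05 and the member with the largest difference in each role. Up to 4 genes with the smallest p are named from each other list, and marker lists are given as summed levels. Chi-square statistics per gene between replicates (10.4 to 42.7) exceeded sampling noise, so no library was a mere re-sequencing of another. They cannot tell whether libraries came from separate RNA or separate animals. P-values measure the spread between samples, which may be technical. In simulated data, false calls made up 6.94% of calls. Alternatives were DESeq2 1.42.0, limma 3.58.1, other scalings and filters, a replicate block and left-out libraries.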

Additional observations from a re-analysis of the deposited data

How the results depend on the processing

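No member passed edgeR's adjusted threshold with RLE factors, library size alone, robust estimation, a stricter filter, unrounded counts, mitochondrial genes left out, limma-voom or any library left out, and 3 to 5 members of 40 had an unadjusted p under 0.05 without 1 library, where 7.32% to 12.4% of all genes did. The number past the threshold was 1 in DESeq2 and 1 without a count filter, Cd69 in both. With library size alone the median log2 fold change was -0.024 for components and -0.042 for the 42 other components, and the median of all genes moved to -0.034. The median of the other induced targets ran from -0.032 to 0.132 with a library left out, highest without wild-type replicate 1. The cause was not tested. With the replicate number as a block, 0 members and 32 genes in all passed, and 3 of 40 members had an unadjusted p under 0.05, against 8.27% of all genes. The numbers showed no pairing: correlations of same-numbered libraries were -0.0198, -0.0246 and -0.0849, and none correlated best with its own number. Those of differently numbered libraries were also small, from -0.043 to 0.0648. With 3 libraries per genotype such values cannot exclude a weak pairing. With mutant replicate 1 and wild-type replicate 3 both left out, 0 members passed. Depth limits Ptgs2 most, at 6 to 30 counts per library.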
